A study of Bos taurus with 20 samples.

Results

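Skin of the horn-forming region was compared between polled (genetically hornless) and horned cattle on 8 of the 20 arrays of the series, chosen by their titles as polled against horned in both dye orders on chips 1 to 4. The 8 arrays hold 4 chip pairs from 4 polled animals (1 male and 3 females) and 3 horned animals (2 males and 1 female), untreated as far as the labels say. Biopsies averaged 63 mg, and per the labels' protocols they held epidermis, dermis and dermal connective tissue, so each value is an average over all cell types of the biopsy. One horned animal, called horned replicate 2, served on both chips 2 and 4. An animal's replicate number is that of its first chip. Age and breed are not given in the sources used here.

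A horn is a bony core sheathed by keratinised epidermis, and it starts in the skin and underlying connective tissue of the frontal region before the core joins the skull. The outer layer of that skin is built by keratinocytes, which are anchored below by hemidesmosomes and joined to each other by desmosomes and tight junctions. The dermis beneath holds fibroblasts that lay down collagen and secrete modulators of WNT, FGF and BMP signals. The polled trait in cattle is dominant, and its known variants lie between genes, near interferon receptor genes and OLIG1.

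Every value below is a log2 ratio of polled over horned for 1 chip, averaged over both dye orders, unless a level is named. On this scale 1 is a 2-fold difference. Dye orders of the same chip correlated at 0.948, 0.923, 0.901 and 0.821 on chips 1 to 4, across probes. Chip pairs with no animal in common correlated at 0.191 to 0.423 across probes, which are not independent replicates. Between 65.9% and 73.75% of spots were well above background, and at most 2 per array were saturated. On chip 1 the polled animal was female and the horned animal male, on chip 2 the reverse held, chip 3 was as chip 1, and on chip 4 both were female. The scan of chip 1 fell on a different day from the others, per the file headers. Sex labels could not be checked, since ZFY, the only gene of the sex chromosome list that was tested, stood at −0.086, −0.28, 0.043 and −0.16.

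COL17A1, the transmembrane collagen of hemidesmosomes, rose in polled skin, and it was the 1 probe of 15505 tested that passed an adjusted p of 0.05 (0.00645% of probes). Its log2 ratios on chips 1 to 4 were 2.55, 2.94, 2.72 and 2.83, with a fitted value of 2.74 (SE 0.12, adjusted p 0.0297), limma with Benjamini-Hochberg adjustment, n = 4 chip pairs. Its levels, as log2 intensities, were 12.44, 13.70, 12.36 and 13.59 in the 4 polled animals and 9.89, 10.76 and 9.63 in the 3 horned animals. All polled animals lay above all horned animals. The call was lost when any chip was left out (fitted values 2.64 to 2.82), and with a term for sex, where COL17A1 stood at 2.80 (adjusted p 0.0724). Over 16 alternatives its adjusted p ran from 0.0165 to 0.681. On chip 4, where both animals were female, it stood at 2.83, and without chip 1 it stood at 2.82. The part of the scan day was not tested, and 1 same-sex pair gives no test of sex. The scanner's processed signals gave 81 calls in place of 1, 64 higher and 17 lower, with COL17A1 among them.

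Across all probes, 1795 (11.6%) had an unadjusted p under 0.05, 968 of them higher (53.9%) and 827 lower in polled skin. With median centring in place of loess, 32.3% of the 1934 such probes were higher. Of 11346 genes, taken with 1 probe each, 1526 (13.4%) were higher on 4 of 4 chips and 1527 (13.5%) lower. A difference of at least 2-fold on every chip was met by 76 genes in the higher direction (0.67%) and by 30 in the lower direction (0.264%). The levels of the 4 polled and 3 horned animals did not overlap for 1059 genes (9.33%). An exact sign test over 4 chips cannot go below a p of 0.125.

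**Figure D1:**
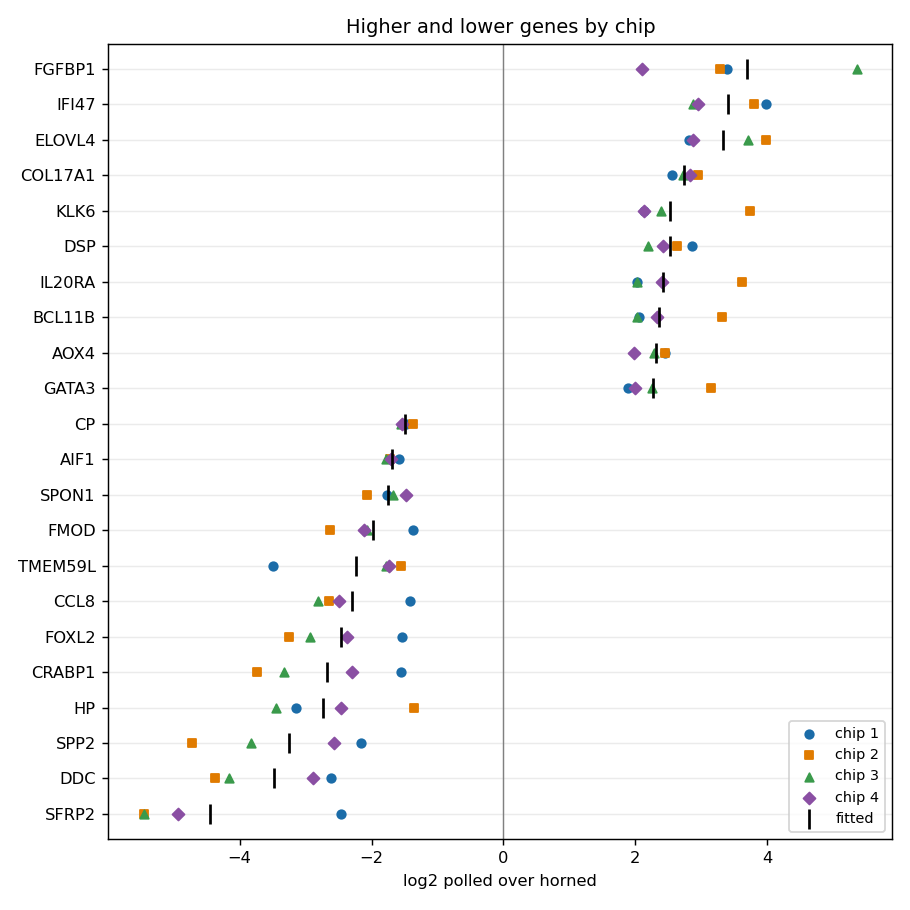
Log2 polled over horned (x axis) on each of the 4 chips (points) and as fitted (bar) for 10 of the 12 higher genes and the 12 lower genes whose smallest chip value was furthest from 0. CP and AIF1 span the narrowest ranges, −1.56 to −1.36 and −1.78 to −1.58, while SFRP2 spans −5.45 to −2.46.

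Several of the 12 genes with the highest smallest value over the chips are known from surface epithelium. DSP, the plakin that ties desmosomes to keratin filaments, had log2 ratios of 2.86, 2.63, 2.20 and 2.41, fitted at 2.53 (SE 0.16, adjusted p 0.0673). ELOVL4, an elongase for the very long fatty acids of the skin barrier, stood at 2.81, 3.98, 3.70 and 2.88, fitted at 3.33 (SE 0.32, adjusted p 0.116). Both were higher on every chip, and neither passed the adjusted threshold. A dimmer ELOVL4 probe ranged from 0.52 to 2.35, fitted at 1.02. The transcription factor GATA3, which shapes the inner root sheath, ranged from 1.89 to 3.15, and BCL11B, a zinc finger factor, from 2.03 to 3.32. The protease KLK6 ranged from 2.13 to 3.73, the receptor subunit IL20RA from 2.02 to 3.61, and AOX4, an aldehyde oxidase, from 1.99 to 2.45.

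IFI47, an interferon-inducible GTPase, had the highest smallest value over the 4 chips (2.87). Its log2 ratios were 3.99, 3.79, 2.87 and 2.95, fitted at 3.41 (SE 0.29, adjusted p 0.116). Levels were 12.62, 11.32, 11.17 and 10.20 in polled and 8.63, 7.39 and 8.30 in horned animals, with no overlap. The interferon response list that holds it did not share its direction: 3 of 29 genes tested lay above 0, and the fitted median was −0.26. In that list 6 genes were lower on 4 of 4 chips, against 13.5% of all genes. PARP9, a member of that list, stood at −0.090, −0.69, −0.63 and −1.04.

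AIF1, a calcium-binding protein of macrophages, was the probe with the next smallest p. Its log2 ratios were −1.58, −1.72, −1.78 and −1.71, fitted at −1.70 (SE 0.10, adjusted p 0.0673), and its levels were 9.79, 9.25, 10.13 and 9.25 in polled and 11.38, 10.96 and 11.91 in horned animals. The groups did not overlap, and the value missed the threshold here. The joint fit of 16 arrays adds a term for sex and 8 arrays of 4 animals labelled scurred. The scurred animals were of both sexes and were compared with the same polled and horned animals without a dye swap. In that fit AIF1 stood at −1.71 and passed (adjusted p 0.0199, against 0.681 at most over the alternatives), while COL17A1 did not.

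SFRP2, a secreted WNT modulator of dermal fibroblasts, had the lowest fitted value of the 24 genes. It stood at −2.46, −5.44, −5.45 and −4.93, fitted at −4.45 (SE 0.59, adjusted p 0.188). Its levels were 12.62, 9.33, 9.85 and 9.66 in polled and 15.08, 14.68 and 15.30 in horned animals, so polled replicate 1 lay well above the other polled animals and still below every horned animal. FOXL2, a forkhead factor whose regulatory region is deleted in hornless intersex goats, stood at −1.53, −3.25, −2.94 and −2.37, fitted at −2.47 (SE 0.36, adjusted p 0.189). Its levels were 9.18, 6.72, 7.66 and 7.44 in polled and 10.72, 9.89 and 10.60 in horned animals. A further FOXL2 probe was not well above background in enough animals to be tested.

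Other genes among the 12 lower ones act in metabolism, the acute phase and the matrix. DDC, which makes dopamine and serotonin from their precursors, stood at −2.62, −4.37, −4.16 and −2.89, and CRABP1, which binds retinoic acid in the cell, at −1.56, −3.74, −3.33 and −2.29. SPP2, a secreted phosphoprotein, was at −2.16, −4.72, −3.82 and −2.58. Ceruloplasmin (CP), a copper-carrying oxidase, ranged from −1.56 to −1.36, and haptoglobin (HP), which binds free haemoglobin, from −3.44 to −1.36. The collagen-binding proteoglycan FMOD ranged from −2.62 to −1.37, the matrix protein SPON1 from −2.08 to −1.48, the chemokine CCL8 from −2.82 to −1.41 and TMEM59L from −3.49 to −1.55. None passed the adjusted threshold, with adjusted p from 0.0673 (AIF1) to 0.236 (SPP2) over the 12.

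**Figure D2:**
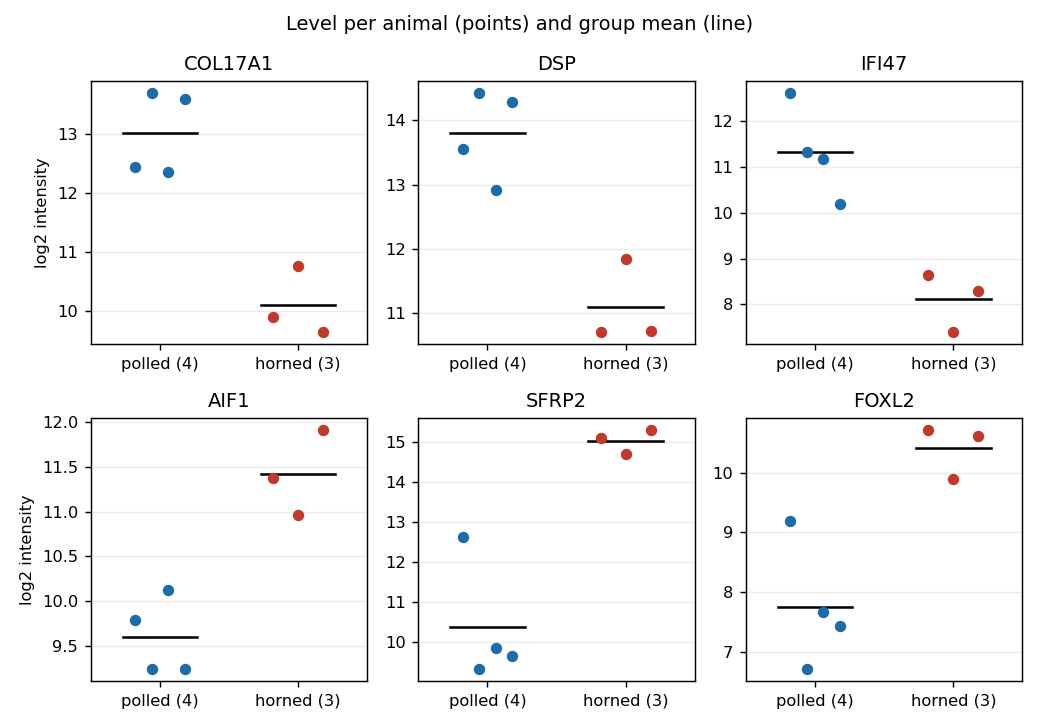
Log2 intensity per animal (points) and group mean (line) of 6 genes in 4 polled and 3 horned animals. For each of the 6 genes the polled animals lie on one side of all horned animals. The 6 genes were chosen for their values in these same data, which favours such a separation. Among all 11346 genes tested, levels did not overlap for 1059 (9.33%). SFRP2 of polled replicate 1 (12.62) stands apart from the other polled animals (9.33 to 9.85).

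Keratinocyte genes stood higher in polled skin as a group. Of 64 genes tested in the lists for basal keratinocytes, cornified envelope, desmosomes and tight junctions, 60 lay above 0, 41 were higher on 4 of 4 chips against 13.4% of all genes, and 1 was lower on all. A probe was tested if it was well above background in 3 of 7 animals, and 7 of the 64 met this with 0 or 1 horned animals, so they passed mainly or only through the polled animals. Of the 52 genes well above background in all 7 animals, 48 lay above 0 and 33 were higher on 4 of 4 chips, against 12.7% of all such genes. COL17A1 alone among them was called. The lists were chosen with earlier results of these data known, which can favour such counts. In a bulk biopsy, more cells of a type and more RNA per cell cannot be told apart. In the basal list the keratins KRT5 and KRT14, which pair into filaments of the basal layer, stood at 2.59, 3.42, 1.85 and 2.73 and at 2.29, 2.40, 1.37 and 1.76. Of its 15 genes, 13 lay above 0, with a fitted median of 0.51.

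In the cornified envelope list 9 of 13 genes well above background in all 7 animals were higher on 4 of 4 chips, against 12.7% of all such genes. Over all 18 tested, of which 3 passed with 0 or 1 horned animals, the fitted median was 1.46. The chip medians were 2.30, 1.79, 0.075 and 1.0, so chip 3 was near 0. SPINK5, an inhibitor of skin proteases, stood at 3.76, 4.20, 1.41 and 3.49, and DSG1, a desmosomal cadherin of the upper layers, at 4.48, 3.56, 1.56 and 2.36. KRT10, a keratin of suprabasal cells, was the highest gene on chip 1 at 7.90 and stood at 0.021 on chip 3. Desmosome and adherens genes were above 0 in 14 of 15 cases, with CDH1, the E-cadherin, at 0.70, 2.17, 1.05 and 1.35. Tight junction genes were above 0 in 16 of 17 cases. CGN, a tight junction scaffold, stood at 1.42, 2.62, 2.11 and 2.22, and the claudin CLDN11 was the 1 gene of that list below 0 on every chip, at −0.52, −2.10, −1.05 and −1.84.

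Alarmin and stress keratin genes had a median of 0.90, with chip medians of 1.63, 2.01, 0.14 and 0.75. KRT17, a keratin of stressed and follicular keratinocytes, stood at 2.06, 2.87, 1.47 and 2.04. S100A7, an antimicrobial protein, spread widely at 5.03, 2.15, 0.047 and 1.62, while TGM2, a widely expressed transglutaminase, was lower on every chip at −0.85, −2.44, −1.24 and −1.71. Hair shaft genes stood near the level of all genes on chips 1 and 3, with chip medians of 0.11, 0.80, −0.0022 and 0.30.

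Dermal genes stood lower. Of 81 genes tested in the collagen and fibroblast lists, 14 lay above 0, 31 were lower on 4 of 4 chips against 13.5% of all genes, and 1 was higher on all. Of the 78 well above background in all 7 animals, 31 were lower on 4 of 4 chips, against 13.7% of all such genes. None was called. The collagen and matrix list had a median of −0.41 over 54 genes, with chip medians of −0.43, −0.85, −0.25 and −0.22. EFEMP2, a glycoprotein needed for elastic fibres, stood at −0.76, −1.61, −0.77 and −1.32. The fibroblast list had a median of −0.50, and its growth factor IGF1 stood at −1.07, −2.25, −2.88 and −1.91, with IGFBP4, which binds IGFs, at −1.25, −1.18, −0.92 and −1.83. These are the genes of lowest p in their lists beside SFRP2, SPON1 and FMOD.

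**Figure D3:**
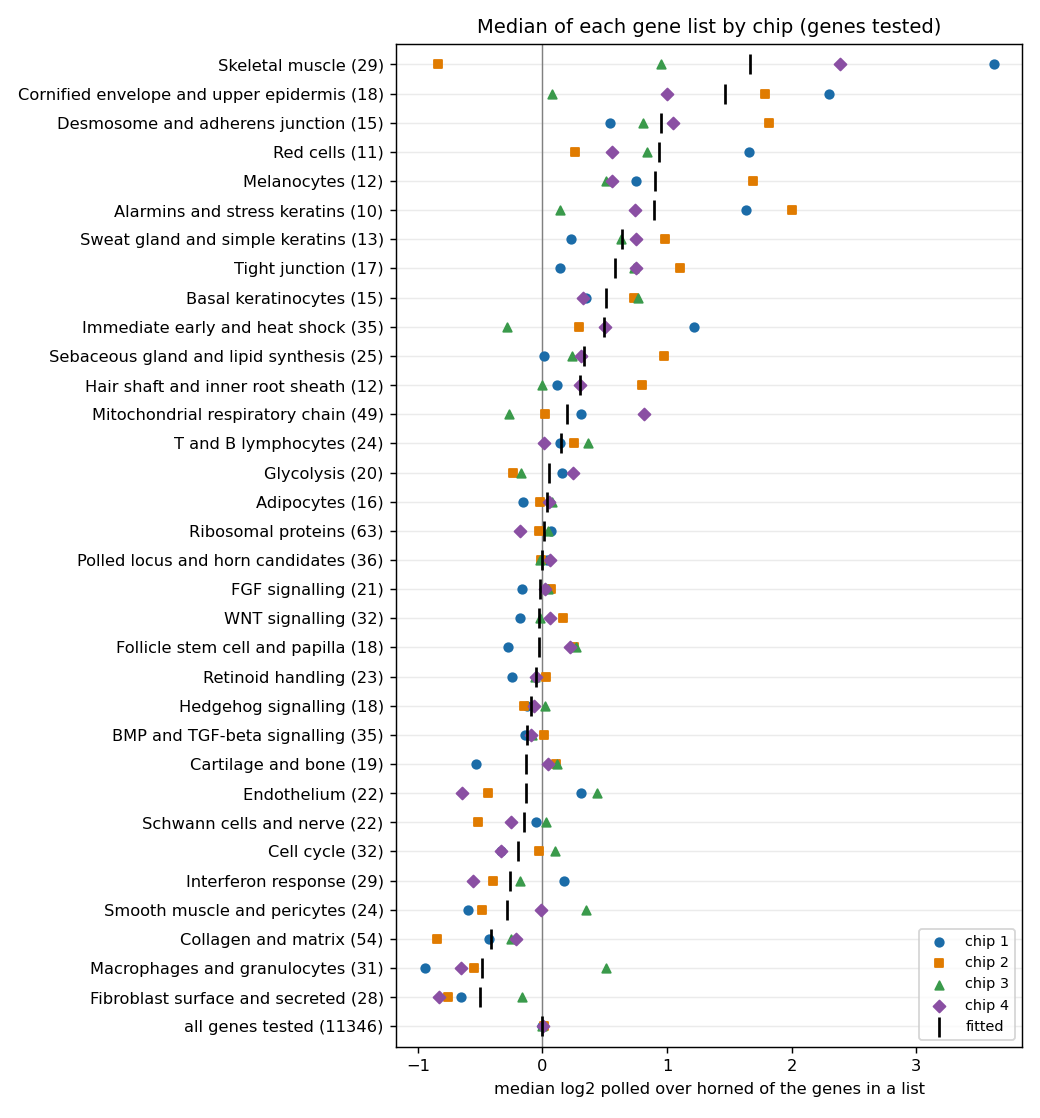
Median log2 polled over horned (x axis) of the tested genes in each list, per chip (points) and as fitted (bar), with the number of genes tested in parentheses. Keratinocyte lists lie above 0 and collagen and fibroblast lists below 0 on 4 of 4 chips, while the skeletal muscle median runs from −0.84 on chip 2 to 3.62 on chip 1.

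Markers of other cells in the biopsy moved with the comparison on some chips. Skeletal muscle genes were above 0 in 27 of 29 cases as fitted, but 1 was higher on 4 of 4 chips, and the chip medians were 3.62, −0.84, 0.95 and 2.38. Of the 29, 5 were well above background in 0 or 1 horned animals, so they passed the filter mainly through the polled animals. Of the 19 well above background in all 7 animals, 1 was higher and 2 lower on 4 of 4 chips, against 12.7% and 13.7% of all such genes. The mean level of the 29 muscle genes was 12.04, 10.61, 8.80 and 13.92 in polled and 8.62, 11.64 and 7.54 in horned animals, so the groups overlapped. MYL1, a myosin light chain of fast fibres, stood at 6.92, −2.17, 4.41 and 3.13. On chip 2, where the muscle median was below 0, COL17A1 stood at 2.94, SFRP2 at −5.44 and the desmosome median at 1.82. The part of muscle in the other results was not tested.

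Red cell genes were all above 0 as fitted (11 of 11), with a median of 0.94. Of the 11, 1 was well above background in 0 horned animals and passed the filter only through the polled animals. Of the 10 well above background in all 7 animals, 6 were higher on 4 of 4 chips, against 12.7% of all such genes. HBB, the adult beta globin, stood at 5.77, 2.18, 3.12 and 1.71, and HBA at 4.17, 1.73, 2.91 and 1.69. The level of HBB was 17.74, 12.01, 14.31 and 11.36 in polled and 11.97, 9.74 and 11.18 in horned animals, with polled replicate 1 highest and polled replicate 4 within the horned range. Immediate early and heat shock genes, which respond within minutes to handling and stress, were above 0 in 31 of 35 cases, with chip medians of 1.21, 0.29, −0.28 and 0.50. Their part in the epidermal and dermal values was not tested.

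Of 12 pigment cell genes tested, 5 were well above background in 0 or 1 horned animals, and thus passed the filter mainly or only through the polled animals. Of the 6 well above background in all 7 animals, 4 were higher on 4 of 4 chips and 0 lower, against 12.7% and 13.7% of all such genes. PMEL, a fibril protein of melanosomes, stood at 1.63, 2.53, 1.06 and 1.12, and GPR143, a melanosome receptor, at 0.72, 1.70, 0.85 and 1.46. OCA2, a melanosome transporter, was well above background in 4 polled animals and 1 horned animal, and stood at 0.77, 0.58, 0.71 and 0.55. TYRP1, a melanin-making enzyme, was well above background in 4 of 4 polled animals and not well above background in any horned animal. Its measured log2 ratios were 1.97, 2.61, 0.43 and 0.85, with chips 3 and 4 the lowest. Between the group means it was at least 2.35-fold higher in polled skin, and the ratios of chips 3 and 4 lay below that bound. For the bound the horned level was taken per array as the lowest signal well above background or the probe's own, whichever was higher.

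The same bound between group means gave at least 4.72-fold for PON3, a paraoxonase, at least 1.76-fold for CA6, a secreted carbonic anhydrase, at least 1.39-fold for IGFL1 and at least 1.25-fold for EPYC, a small proteoglycan. For each of these genes the ratios of some chips lay below the bound, so it does not hold for every chip pair. PON3 had measured log2 ratios of 2.02, 2.63, 3.30 and 1.61 and an adjusted p of 0.195 (limma). PON3, CA6, IGFL1 and EPYC were well above background in every polled animal and in no horned animal. They thus passed the filter only through the polled animals. Their direction follows from how they were picked, so their ratios and bounds are no separate support for it. No probe met the reverse condition of being detected in horned animals only.

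Of 31 macrophage and granulocyte genes tested, 8 lay above 0 as fitted. On 4 of 4 chips 2 were higher and 9 lower, against 13.4% and 13.5% of all genes. The list median was −0.49, but the chip medians were −0.94, −0.55, 0.51 and −0.66, so chip 3 had the opposite sign. AIF1, LRRC25 and CD14 were below 0 on every chip nonetheless, LRRC25 at −1.13, −1.01, −1.01 and −1.07 and CD14, a receptor for bacterial lipopolysaccharide, at −0.70, −0.55, −0.59 and −0.55. For lymphocyte genes the median was 0.15, and 19 of 24 lay above 0 as fitted. On 4 of 4 chips 9 were higher and 1 lower, against 13.4% and 13.5% of all genes. The T cell receptor chains CD3G and CD3E stood at 0.88, 0.93, 0.87 and 0.58 and at 0.68, 0.98, 0.63 and 0.66, and the T cell adaptor SIT1 at 0.77, 1.33, 1.04 and 0.58. Of 22 nerve genes, 18 lay below 0 as fitted. On 4 of 4 chips 6 were lower and 1, ERBB3, higher, against 13.5% and 13.4% of all genes. NGFR, the low-affinity neurotrophin receptor, stood at −0.86, −0.79, −0.93 and −1.27, with a dimmer NGFR probe at −0.34 to −0.077. CADM3, a cell adhesion molecule of nerve, stood at −1.27, −1.96, −1.97 and −0.52, with a dimmer CADM3 probe at −1.11 to −0.85. ERBB3, a neuregulin receptor, stood at 0.95, 1.55, 0.76 and 1.13.

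Genes for secreted frizzled-related proteins, which bind WNT ligands, lay at both ends of the WNT list. SFRP2 was lowest and SFRP1 stood at −2.58, −0.39, −2.01 and −1.01. Named after their values were seen, SFRP4 stood at −1.57, −2.94, 0.61 and −2.17, with chip 3 above 0, and FRZB, the highest WNT gene as fitted (1.21), at 2.95, −0.74, −0.061 and 2.44, with chips 2 and 3 below 0. The coreceptor LRP6 stood at −0.19, −0.71, −0.42 and −0.80. Over the 32 WNT genes tested, 5 were higher and 5 lower on 4 of 4 chips, beside 13.4% and 13.5% of all genes. The median of the WNT list was −0.025. The FGF list had 6 genes higher and 6 lower of 21, beside 13.4% and 13.5% of all genes. Its ligand FGF10, a mesenchymal signal to epithelium, stood at −1.17, −0.91, −0.76 and −0.67. FGFBP1, which releases FGFs from the matrix, stood at 3.38, 3.28, 5.36 and 2.10, and SPRY2, an inhibitor of FGF receptor signalling, at 1.10, 1.29, 0.76 and 1.14.

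**Figure D4:**
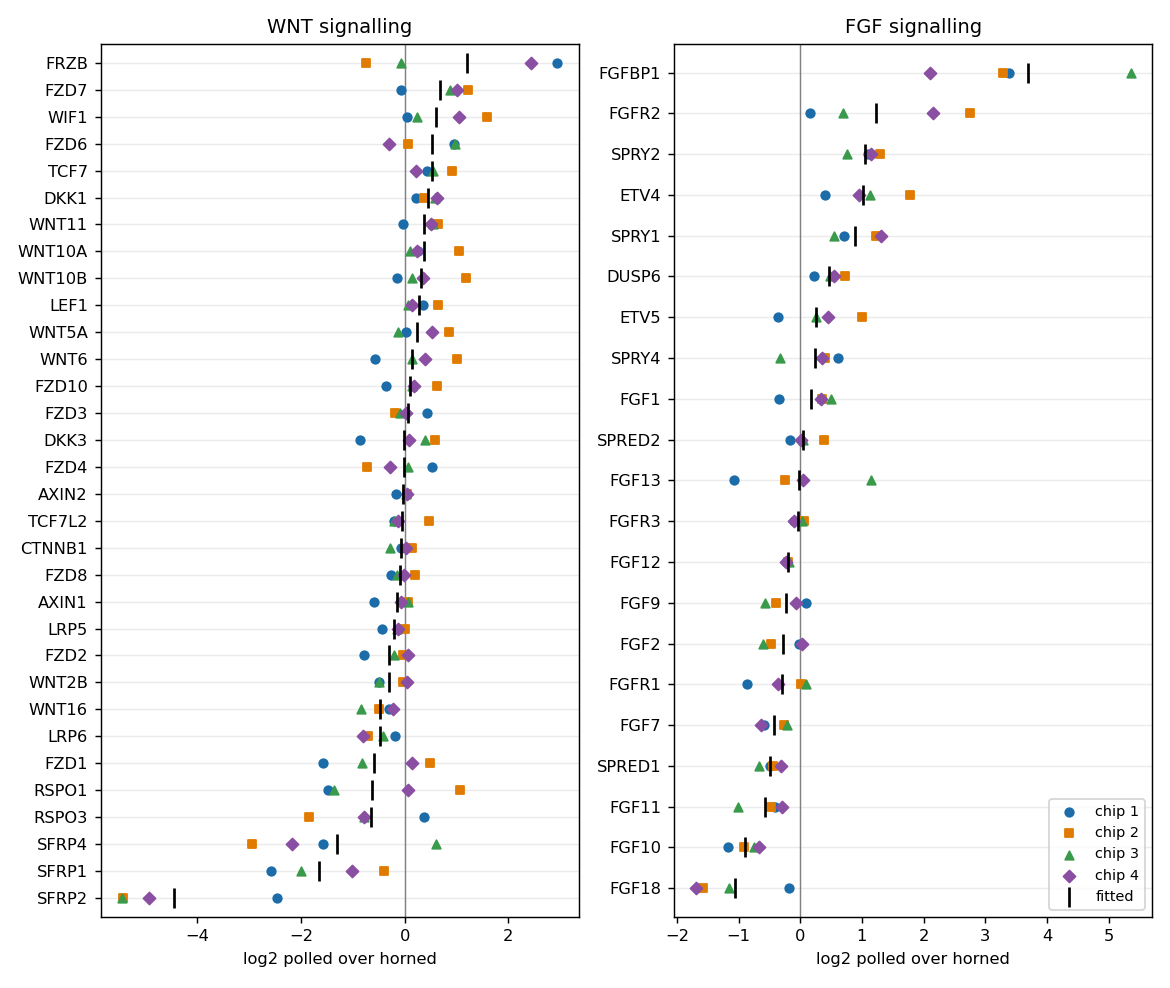
Log2 polled over horned (x axis) of each tested WNT gene (left) and FGF gene (right), per chip (points) and as fitted (bar). SFRP2 lies lowest among WNT genes at −4.45 and FGFBP1 highest among FGF genes at 3.70.

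In the BMP and TGF-beta list BMP4, a ligand, stood at 0.31, 0.65, 0.51 and 0.54, FST, an inhibitor of activins, at 0.42, 0.93, 0.85 and 1.46, and LTBP2, a matrix protein of the TGF-beta binding family, at 0.79, 1.06, 0.83 and 1.55. Of 35 genes, 4 were higher and 5 lower on 4 of 4 chips, beside 13.4% and 13.5% of all genes. Of 14 hedgehog genes well above background in all 7 animals, 0 were higher and 4 lower on all chips, against 12.7% and 13.7% of all such genes. The hedgehog ligand DHH stood at −0.30, −0.54, −0.28 and −0.35. HHIP, which binds hedgehog ligands, was well above background in 3 polled and 0 horned animals, so no ratio is given.

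Of 23 retinoid genes, 11 lay above 0. On 4 of 4 chips 3 were higher and 7 lower, against 13.4% and 13.5% of all genes. The list median was −0.054. The genes of lowest p other than CRABP1 were LRAT, which stores retinol as esters, at −1.81, −1.21, −0.30 and −1.16 and RBP4, its carrier, at −0.77, −1.12, −1.71 and −0.73. ALDH1A1, which makes retinoic acid and was named after its values were seen, was highest as fitted, at 0.24, 1.60, 1.62 and 2.73.

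Neighbours of the polled locus and candidates from horn work had a median of −0.0053 over 36 genes. On 4 of 4 chips 8 were higher and 8 lower, against 13.4% and 13.5% of all genes. FOXL2 had the lowest value in that list. ALX1, a homeobox factor of the face and skull, stood at −0.82, −2.11, −1.15 and −1.52, and IFNGR2, an interferon gamma receptor subunit near the locus, at −0.46, −0.74, −0.34 and −0.55. Named after their values were seen, OLIG1 stood at −0.14 to 0.013 and RXFP2, the relaxin-family receptor tied to horns in sheep, at −0.20 to 0.13. Of 19 bone and cartilage genes tested, 7 lay above 0. On 4 of 4 chips 2 were higher and 3 lower, against 13.4% and 13.5% of all genes. The chip medians of that list were −0.53, 0.11, 0.11 and 0.0475, so the list as a whole was not lower on every chip. Its genes of lowest p include RUNX2, the master factor of bone cells, at −1.08, −1.18, −1.42 and −1.85. SPP1, a bone matrix phosphoprotein, stood at −2.41, −0.87, −1.72 and −0.39. A dimmer RUNX2 probe ranged from −0.33 to −0.090.

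The value of the class II gene BOLA-DQA2, known for many alleles, ran from −4.18 to 4.90, the lowest gene but SFRP2 on chip 3 and among the 3 highest on chips 2 and 4. Other genes among the 3 highest or lowest of a chip were CHI3L1 (−4.16 on chip 1), COCH (4.93 on chip 2), LCN9 (5.27 on chip 3) and FBP2 (4.48 on chip 4).

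Whether polled and scurred skin differ in their distance from horned skin was tested in the joint fit, as polled minus scurred. No probe passed (0%), with 935 of 15505 at an unadjusted p under 0.05. COL17A1 stood at 0.32 (SE 0.78) in that contrast, AIF1 at −1.16 (SE 0.11, adjusted p 0.228, limma) and SFRP2 at −3.88 (SE 0.80, adjusted p 0.79, limma). IFI47 stood at −0.24 (SE 0.36) in the same contrast. In scurred over horned skin IFI47 was at 3.65, 3.53, 3.52 and 4.70 on chips 1 to 4, so it was higher there too. Without chip 4, 2 probes passed. Polled replicate 3 was also measured at its horn site against control skin of its skull, which has no replicate here. SFRP2 stood at −1.72 there, horn site over control, FOXL2 at 0.78, DDC at −0.15 and KRT10 at −4.44.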

How the data were processed

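RNA of horn-forming skin was hybridised to 2-colour Agilent arrays. The deposited files give an intensity per spot and dye and, per the file headers, a log10 ratio of processed signals. A deposited value table of the series has the same log10 ratios, with signs turned on exchanged dyes. Its column medians lie from −0.019 to 0.00971. The submitters' processing notes name the software as Agilent Feature Extraction 9.5.1.

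Background correction of the mean intensities used normexp with an offset of 50, followed by loess within arrays, in limma 3.58.1 (R 4.3.3, data.table in version 1.17.8). Flagged and control spots were left out and duplicate spots averaged. Probes entered the tests if 3 or more of 7 animals had a signal well above background. Dye orders were averaged per chip, and the 4 chip pairs were tested against 0, two-sided, with the shared horned animal as a block (correlation 0.5) and Benjamini-Hochberg adjustment over all probes. The joint fit of 16 arrays adds scurred animals and sex. Symbols were found for 16244 of 21475 probes, through the files or a RefSeq table (ARS-UCD2.0), used for names only. Of 905 genes with several probes tested, 248 had probes on opposite sides of 0, and the probe of highest mean intensity stands for the gene.

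Members and lists were chosen with earlier results of these data known. Named genes are probes past the threshold, the 12 higher and 12 lower with the largest smallest value over the chips, the 3 of lowest p per list, and the 3 highest and lowest per chip. Some genes that meet this rule are not reported here. The fit was run on simulated data with less noise than these data and with the correlation that the fit assumes. That run does not show how the fit performs on these data. Alternatives cover normalisation, filter, block, sex, dye order and left-out chips. The number of animals limits the precision.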

Additional observations from a re-analysis of the deposited data

Results flagged for a closer look

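On 1 chip, 6 of 114 results stood apart from the other 3 chips, by a gap above Dixon's critical value for 4 values. Chance flags about 1 in 20 such groups, and 6 of 114 is near that share. KLK6 stood at 3.73 on chip 2 and at 2.13 to 2.39 on the other chips, and CD3E at 0.98 on chip 2 against 0.63 to 0.68. TMEM59L was at −3.49 on chip 1 and at −1.78 to −1.55 elsewhere, and OLIG1, near the polled locus, at −0.14 on chip 1. The median of the follicle stem cell and papilla genes was −0.27 on chip 1 and 0.22 to 0.27 elsewhere. The median of the cartilage and bone genes was −0.53 on chip 1 against 0.047 to 0.11. Chip 1 differs from the other chips in its scan day and holds other animals, and the part of either was not tested.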

How the results depend on the processing

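The count of probes past the threshold, 1 in the main setting, was 81 with processed signals, 85 with the series table, 22 with 4 independent pairs, 6 with polled in red only, 4 with the stricter filter and 2 with no filter. It was 0 with median centring, a term for sex and polled in green only. Channels taken separately, with no replicate block, gave 0 calls and 1440 probes at an unadjusted p under 0.05. Leaving out a chip or the shared horned animal gave 0 calls in each case and 1009 to 1689 probes at an unadjusted p under 0.05, the lowest without horned replicate 2. The joint fit had 1 call, AIF1 in place of COL17A1. The cause of these differences was not tested. An estimated correlation between chips could not be fitted, so that alternative was not run. Polled minus scurred gave 0 to 2 calls with a chip left out, 2 without replicate 4.

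Of the genes named, BOLA-DQA2, fitted at 0.27, ran from −2.47 to 2.18 with a chip or the shared horned animal left out. OLIG1, fitted at −0.036, had 0.050 with median centring, 0.039 with polled in red only and −0.064 to 0.0075 with a chip or the shared horned animal left out. RXFP2 had 0.076 with median centring, 0.056 with polled in red only and −0.057 to 0.066 with a chip or that animal left out. The cause was not tested. List medians moved by less than the SD of the 4 chip medians in 512 of 528 cases. That SD can exceed the median itself, as for skeletal muscle (1.92 against 1.67). The follicle stem cell and ribosomal medians took the other sign in 7 of 16 alternatives each, and the FGF and adipocyte medians in 5 each. The basal, cornified envelope, desmosome, tight junction, collagen and fibroblast medians kept their sign in all 16. Depth is not defined for arrays, and probes near background in both groups have compressed ratios under the offset of 50.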
